A study of Arabidopsis thaliana with 60 samples.

Results

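The genes of chromosome 5 are described in a single triploid plant of Arabidopsis thaliana, the biparental triploid (BT) replicate 5, in which the chromosome as a whole was read more often than in its 4 sister plants. The members are all nuclear genes whose locus identifier starts with AT5G and whose normalized count averaged at least 50 over 15 plants. They number 3809 of the 4967 chromosome 5 genes in the tables and of 16208 nuclear genes that pass the same minimum, while 21450 genes are listed in all. For each gene the log2(normalized count + 1) in BT replicate 5, less the mean of BT replicates 1 to 4, was set relative to the median of the same difference over the 5665 genes of chromosomes 2 and 3 that pass the minimum. This relative shift was compared with 0 and with 0.42, which is log2(4/3), the value that 4 copies of a gene against 3 would give at an equal output per copy. The plant and the chromosome were chosen by this shift in these same libraries, so all values of the shift are a description, without a test, and they rest on 1 plant, with no replicate. DNA copy number was not measured in these data. Of the chromosome 5 genes listed, 1158 were below the minimum and are not described. Of the members, 16 averaged under 50 over the other 14 plants and so passed only through BT replicate 5. The median shift of the remaining 3793 members was 0.44, with 69.9% of them nearer to log2(4/3) than to 0.

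The series holds poly(A) RNA profiles of the aerial parts of 15 plants, harvested 18 days after sowing, in 3 groups of 5: triparental triploids (TT), biparental triploids (BT) and biparental diploids (BD). The mother of every plant carried ein3-1, a mutation in EIN3, a transcription factor of ethylene signalling. BT plants had this 2n mother and a 4n pollen donor with pRPS5a::mGAL4-VP16/-; pUAS::BAR-YFP/-, a pair of transgenes in which the activator driven by the RPS5a promoter switches on a herbicide resistance fused to a fluorescent protein. BD plants came from the same cross with a 2n pollen donor, and TT plants from pollination by 2 pollen donors at once. All 3 groups were germinated on glufosinate (25 mg/l), which only seedlings with the resistance survive, and YFP and ploidy were checked in each plant. The 4 technical replicates of each plant had been combined by the authors, and the plant is the unit here.

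An extra copy of a single chromosome is known as aneuploidy. Triploid plants form uneven gametes and often pass on such chromosomes, and Arabidopsis tolerates them better than most animals do. Transcripts of the added chromosome can follow the copy number, they can be held near the level of the other chromosomes (compensation), or they can move with the responses of the whole plant, which also reach genes on all other chromosomes. Subunits of large complexes such as the ribosome and the proteasome are classical cases in which an unbalanced dose of a single partner has been studied.

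The median relative shift of the 3809 chromosome 5 genes was 0.44 in BT replicate 5, a ratio of 1.36, between a 25th percentile of 0.13 and a 75th percentile of 0.72. On the authors' rlog values, which shrink differences by construction, the median was 0.25 and 57.4% of members were nearer to log2(4/3) than to 0. On normalized counts the same median lay between -0.0071 and 0.013 in the other 14 plants, each set against the sister plants of its group without BT replicate 5, so that no other plant approached it. In BT replicate 5 the medians of the other chromosomes were 0.067 for chromosome 1, -0.0059 for chromosome 2, 0.0051 for chromosome 3 and -0.074 for chromosome 4. Chromosome 5 held 25.9% of all nuclear reads in BT replicate 5, and 19.8% to 21.6% in each of the other 14 plants. BT replicate 5 had 20600915 reads on genes and the other plants had between 19534646 and 30756482, so that its depth lay within their range. A like value occurs once more in the series, on chromosome 4 of BT replicate 2, whose 2463 genes had a median of 0.40 by the same measure. That plant is 1 of the 4 that BT replicate 5 is set against, which lowers the chromosome 4 median of BT replicate 5 by construction.

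**Figure D1:**
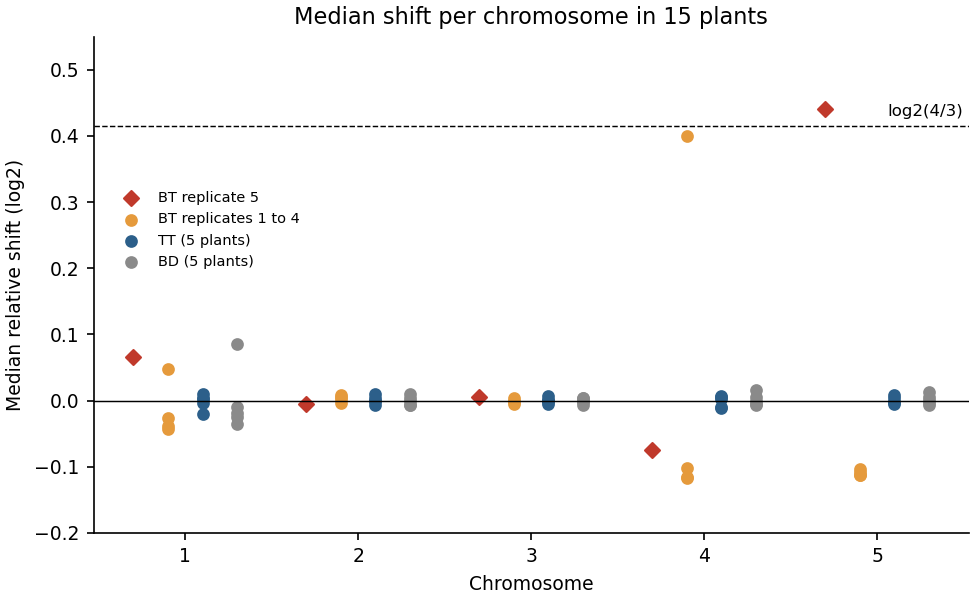
Median relative shift (log2, y axis) of the genes of each chromosome (x axis), 1 point per plant, each plant set against the other plants of its group. BT replicate 5 stood at 0.44 on chromosome 5 against -0.11 to -0.10 for BT replicates 1 to 4, whose baseline contains it, and BT replicate 2 stood at 0.40 on chromosome 4. The dashed line marks log2(4/3).

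Single genes spread widely around this median, on chromosome 5 and off it. The interquartile range was 0.590 for chromosome 5, against 0.591 for chromosomes 2 and 3, 0.633 for chromosome 1 and 0.649 for chromosome 4. The 5th, 10th, 25th, 50th, 75th, 90th and 95th percentiles of chromosome 5 lay 0.41 to 0.45 above those of chromosomes 2 and 3. By size, 1412 members (37.1%) followed the copy ratio, which means a relative shift from 0.21 to 0.62, a window centred on log2(4/3). A further 1254 (32.9%) lay beyond 0.62, 769 (20.2%) lay within 0.21 of 0, and 374 (9.82%) were lower than -0.21. Of all 16208 nuclear genes 25.1% followed, 16.2% lay beyond, 32.2% lay within 0.21 of 0 and 26.5% were lower. The 2666 members that followed or lay beyond (69.99%) were nearer to log2(4/3) than to 0. A 95% Wilson interval of this share, which takes genes as independent draws, was 68.5% to 71.4%. The share was 41.3% for all 16208 nuclear genes and 32.5% for the 12399 genes off chromosome 5. The rule used this contrast, and nothing is read from the difference of these shares. When the same limits were moved down by log2(4/3) and applied to chromosomes 2 and 3, 37.8% lay in the window of those that followed, 31.0% beyond it, 21.1% in the unshifted window and the rest below, each share within 2 percentage points of that of chromosome 5. The members that escaped the shift were thus about as many as the genes of chromosomes 2 and 3 that lay equally far below their own centre.

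Genes that stood apart in BT replicate 5 also varied in a plant that the rule did not use. The deviation of each gene in BD replicate 4 from its 4 sister diploids was correlated with the relative shift in BT replicate 5, with a Pearson coefficient of 0.68 across the 3809 members and 0.75 across the 5665 genes of chromosomes 2 and 3. BD replicate 4 was singled out as the plant with the highest such coefficient among the 10 TT and BD plants, where the other 9 lay between -0.55 and 0.20 over the members. Genes are not independent replicates, and no plant enters both measures. The members lower than -0.21 in BT replicate 5 had a median of -0.50 in BD replicate 4, the unshifted ones -0.23, those that followed 0.0021, and those beyond 0.30. In BD replicate 2 the medians were 0.32 for the lower class and -0.16 for the class beyond, and in BD replicate 5 they were 0.13 and -0.14. Both plants are set against sisters that include BD replicate 4, which pushes their values the other way by construction. Nothing is read from that reversal. When members were split into 5 equal bins by their value in BD replicate 4, their median shift in BT replicate 5 was -0.041 in the lowest bin, then 0.27, 0.46 and 0.56, and 0.95 in the highest. Genes of chromosomes 2 and 3 within the same limits stood at -0.46, -0.15, 0.024, 0.16 and 0.55. The difference between the chromosomes was 0.40 to 0.43 in every bin, a ratio of 1.32 to 1.35.

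**Figure D2:**
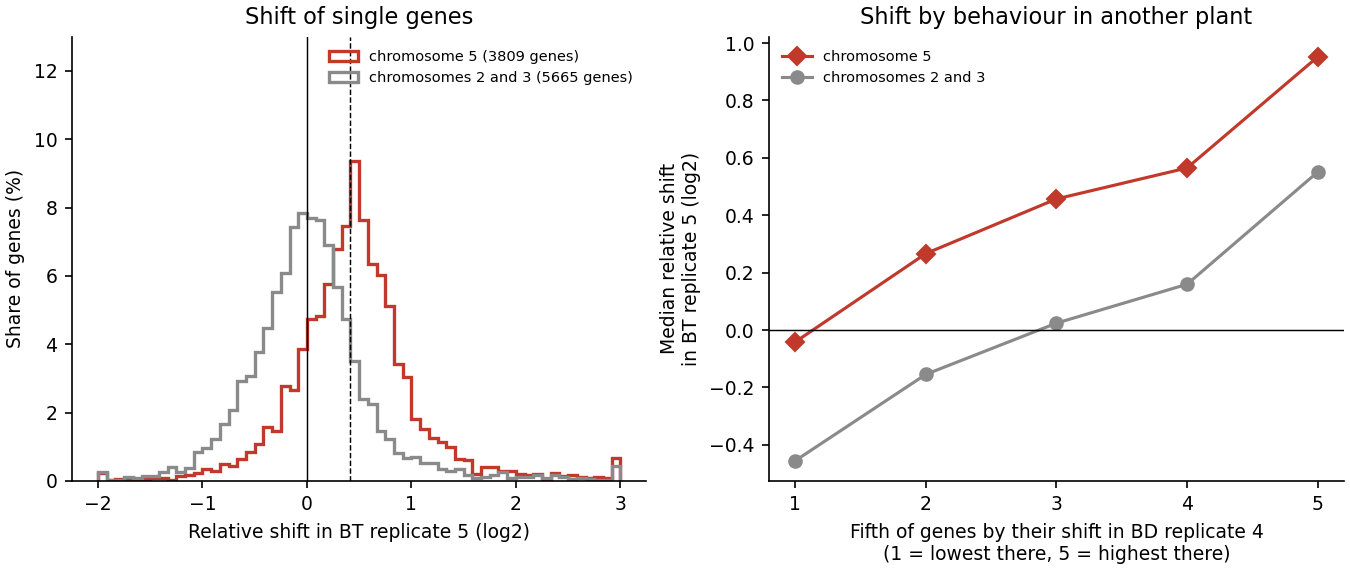
Left, share of genes (%, y axis) by relative shift in BT replicate 5 (log2, x axis; values past the ends are counted in the outermost bars) for chromosome 5 and for chromosomes 2 and 3; the chromosome 5 curve has the same width and sits 0.44 higher at the median, with the solid line at 0 and the dashed line at log2(4/3). Right, median shift in BT replicate 5 (log2) of genes split into 5 equal bins by their deviation in BD replicate 4; chromosome 5 lies 0.40 to 0.43 above chromosomes 2 and 3 in each bin.

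Along the chromosome the shift was even. In 10 consecutive blocks of 380 or 381 members in gene order, the median ranged between 0.41 and 0.46, and the share nearer to log2(4/3) than to 0 between 68.2% and 72.4%. In the other 14 plants the medians of these blocks lay between -0.063 and 0.059. In 40 blocks of 95 or 96 members the medians of BT replicate 5 ranged from 0.36 to 0.57, so that no block was near 0. Neighbouring members had nearly unrelated shifts, with a Pearson coefficient of 0.049 over 3808 adjacent pairs on chromosome 5, beside 0.0075 on chromosome 2 and 0.11 on chromosome 3.

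**Figure D3:**
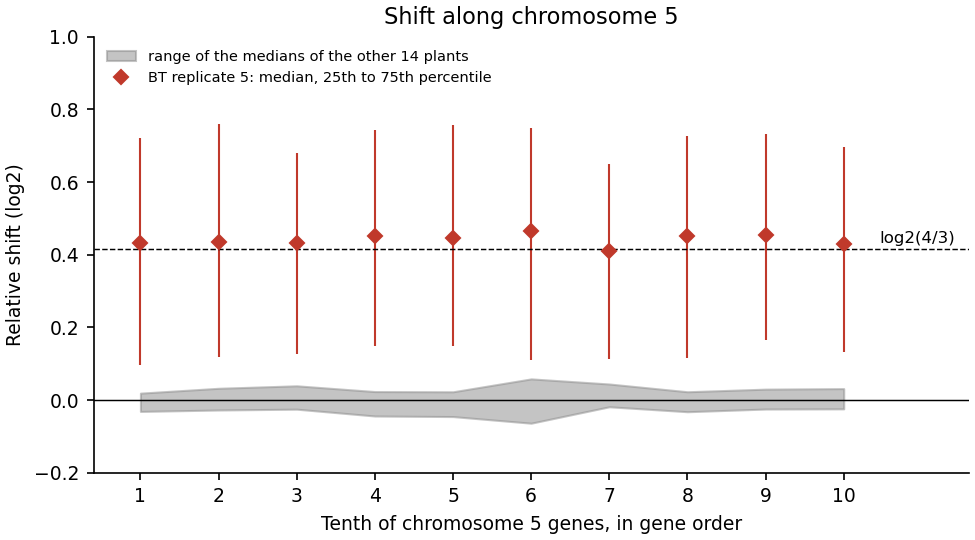
Relative shift (log2, y axis) in 10 consecutive blocks of chromosome 5 genes (x axis, gene order). Diamonds are medians in BT replicate 5, between 0.41 and 0.46, with bars from the 25th to the 75th percentile; the grey band spans the medians of the other 14 plants, -0.063 to 0.059.

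Rank correlations of the shift with expression level and gene structure were weak. In 5 equal bins by mean normalized count the medians were 0.39, 0.45, 0.47, 0.50 and 0.34 from the lowest to the highest, where the most abundant bin begins at a mean of 1264. In 5 bins by the within-group SD over the 10 TT and BD plants, the medians were 0.47, 0.44, 0.40, 0.40 and 0.50, and the share nearer to log2(4/3) than to 0 was 82.0% in the steadiest bin and 61.4% to 74.7% in the others. The steadiest bin also had the narrowest quartiles, 0.29 to 0.64, and the most variable bin the widest, -0.046 to 1.29. Genes of 1 exon had a median of 0.35 (465 members) and genes of 11 or more exons 0.46 (707 members). Spearman coefficients of the shift with mean count, SD, transcript length, GC content and number of exons lay between -0.029 and 0.055 on chromosome 5, and between -0.015 and 0.072 on chromosomes 2 and 3.

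Promoters were read from the RefSeq annotation of the TAIR10.1 assembly, from 250 bases before to 50 bases after the annotated start of each gene, and 5 short motifs, none of which contains another, were searched on both strands. The site II element TGGGCC, known from promoters of ribosomal protein and other growth genes, was found in 24.1% of members that followed, 21.5% of those beyond, 19.9% of those unshifted and 13.6% of those lower, beside 21.4% of all members and 18.1% of all 21283 promoters. On chromosomes 2 and 3 the share was 16.1% for genes lower than -0.21 and 15.4% for those beyond 0.62. These classes hold 31.3% and 10.3% of the genes there, against 9.82% and 32.9% on chromosome 5. The remaining classes were not counted on chromosomes 2 and 3, so the order cannot be compared. Members with it had a median shift of 0.46 and an interquartile range of 0.50 (814 members), those without it 0.44 and 0.63 (2995 members). The telo-box AAACCCTA was found in 7.01% of members that followed and in 3.21% to 4.31% of the other classes. It was found in 5.17% of all members and 5.60% of all promoters. On chromosomes 2 and 3 the share was 5.19% for genes lower than -0.21 and 3.95% for those beyond 0.62. Members with the telo-box had a median shift of 0.43 and an interquartile range of 0.42 (197 members), those without it 0.44 and 0.60 (3612 members). The TATA box TATAAA was held by 49.3% to 52.9% of each class and by 51.1% of all promoters. The G-box CACGTG, bound by bZIP and bHLH factors, was held by 7.15% to 10.7% of each class and by 8.62% of all promoters, and the evening element AAAATATCT, known from clock-controlled genes, by 2.62% to 3.99% of each class and by 3.04% of all promoters. A match of letters is not a bound site, and these shares were not tested.

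To see single genes against a low spread, members with a mean of at least 200 and a within-group SD under 0.15 over the 10 TT and BD plants were taken as quiet. Of these 743 genes, 403 (54.2%) followed the copy ratio, 204 (27.5%) lay beyond, 125 (16.8%) were unshifted and 11 (1.48%) were lower. Their median was 0.47. Of the 1078 genes of chromosomes 2 and 3 within the same limits, 24.6% followed, 1.11% lay beyond, 56.2% were unshifted and 18.1% were lower. The median of those genes was 0.068, so it was not 0 either. In 519 of the 743 quiet members of chromosome 5 (69.9%) BT replicate 5 was the highest of the 15 plants. This was so in 47.1% of all members and 22% of all 16208 nuclear genes. BT replicate 5 was the lowest of 15 in 18 quiet members (2.42%), beside 20.1% of all nuclear genes. These positions restate the shift in ranks and are no independent support for it.

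Of the quiet genes with a symbol that followed, the 8 most abundant are given first. ACT7 (AT5G09810), the main actin of vegetative tissue, had a normalized count of 13459.6 in BT replicate 5, against 8937, 10126, 8714 and 9718 in BT replicates 1 to 4, and lay between 8794 and 10326 in TT and between 8902 and 10389 in BD. ATP5 (AT5G13450), a subunit of the mitochondrial ATP synthase, had 6716, against 5057, 4460.3, 5169 and 5282. RAN2 (AT5G20020), a small GTPase of nuclear transport, had 5889.6, against 3924, 3776, 4208 and 5041. In each of these 3 genes BT replicate 5 lay above all of the 14 other plants, with relative shifts of 0.61, 0.51 and 0.57. GME, which makes GDP-L-galactose for ascorbate and cell walls, shifted by 0.57, and CI51, a subunit of mitochondrial complex I, by 0.44. TUB4, a beta-tubulin, RPS10B, a protein of the small cytosolic ribosomal subunit, and RSR4, an enzyme of vitamin B6 synthesis, stood at 0.33, 0.32 and 0.26. For RPS10B the count was 7439 in BT replicate 5, against 5798, 4952, 7089.8 and 7869.9 in its sisters, so that the groups overlapped there.

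The 8 quiet genes with a symbol and the lowest shifts stood lower in BT replicate 5 than the mean of its sisters. Single sisters could lie lower still, as for ADCL, with 1023 in BT replicate 5 and 989 in BT replicate 1. TGG1 (AT5G26000), the myrosinase that splits glucosinolates, had 19499 in BT replicate 5, against 31179, 31502, 27122 and 23748 in BT replicates 1 to 4, and between 28586 and 34634 in TT, a relative shift of -0.45. NDPK2 (AT5G63310), a nucleoside diphosphate kinase, had 4677, against 6122, 4937, 6739 and 7724, a shift of -0.35. CAC2 (AT5G35360), the biotin carboxylase of plastid fatty acid synthesis, had 3125, against 3788, 3738, 4191 and 4549, a shift of -0.29. In each of these 3 genes BT replicate 5 was below all 14 other plants. The other quiet genes with a symbol at the low end were ABCI11 (-0.50), a transporter protein of the plastid, FBA4 (-0.33), a fructose-bisphosphate aldolase, GPDHp (-0.32), a plastid glycerol-3-phosphate dehydrogenase, ADCL (-0.21), an enzyme of folate synthesis, and HCF109 (-0.21), the plastid release factor for translation. In BD replicate 4, which is 1 of the 10 plants that set the quiet genes and was singled out for its likeness to BT replicate 5, the deviations of these 8 genes lay between -0.34 and -0.0048.

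Highest of the quiet genes with a symbol stood UBQ3 (AT5G03240), a polyubiquitin gene. Its count was 23691 in BT replicate 5, against 9643, 7868, 8865 and 8774 in BT replicates 1 to 4, between 7562 and 8861 in TT and between 8161 and 10099 in BD, a relative shift of 1.52 and a ratio of 2.86. Polyubiquitin genes are near copies of each other and can share reads, so that the value is less certain than that of a single gene. HDA2, a histone deacetylase, stood at 593, against 304, 262, 289 and 297, a shift of 1.12, and SMT1, the first methyltransferase of plant sterol synthesis, at 2900.5, against 1536, 1614, 1322 and 1764, a shift of 0.98. PAD2 and PAA1, alpha subunits of the 20S proteasome, shifted by 1.05 and 0.98, APD2 by 1.05, CDPK9, a calcium-dependent protein kinase, by 0.99, and ALF4, needed for lateral roots, by 0.97. The 14 other plants lay below BT replicate 5 in all 8 of these genes.

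**Figure D4:**
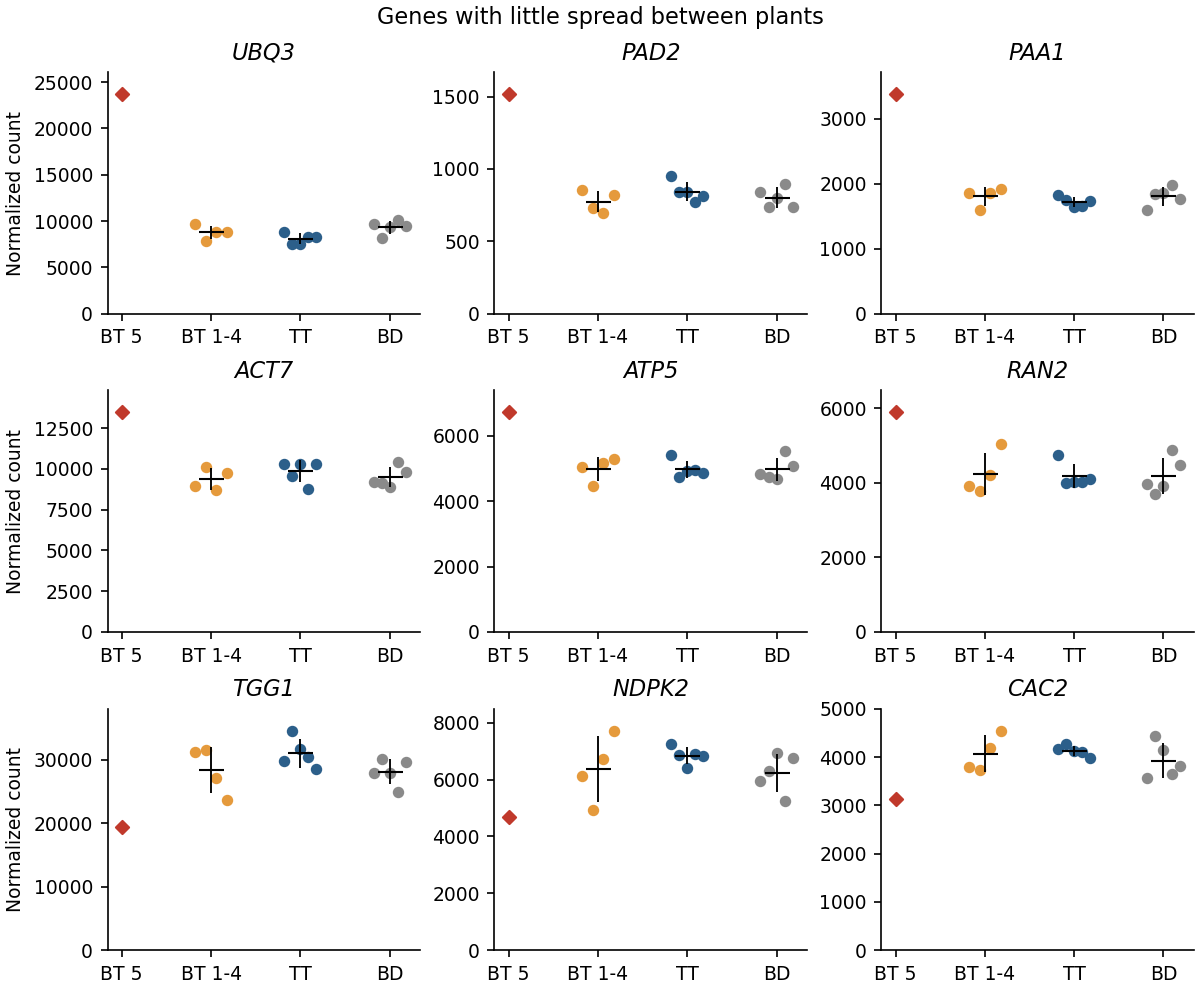
Normalized count (y axis) of 9 chromosome 5 genes with little spread between plants, 1 point per plant, for BT replicate 5, BT replicates 1 to 4, TT and BD; bars give mean ± SD. UBQ3, PAD2 and PAA1 (top) lay beyond the copy ratio in BT replicate 5 with shifts of 1.52, 1.05 and 0.98, ACT7, ATP5 and RAN2 (middle) followed it with 0.61, 0.51 and 0.57, and TGG1, NDPK2 and CAC2 (bottom) were lower with -0.45, -0.35 and -0.29.

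Of the functional lists, the 26S proteasome, which degrades ubiquitin-tagged proteins, stood high on chromosome 5 and also, to a lesser degree, on the other chromosomes of the same plant. All 13 measured subunits of chromosome 5 were nearer to log2(4/3) than to 0, with 11 of them beyond 0.62 and a median of 0.79. The 38 subunits encoded on other chromosomes had a median of 0.41, and 30 of them were at or above 0.21. The difference between both sets was 0.37, a ratio of 1.295, and in the other 14 plants it lay between -0.11 and 0.066. RPT3, an ATPase of the base, had a count of 4287 in BT replicate 5, against 2526, 2170.1, 2153 and 2223 in BT replicates 1 to 4. PAD2 had 1516, against 856, 728, 699 and 818. RPN9A, a lid subunit with the lowest shift of the list (0.50), had 1381, against 1029.7, 1056, 928 and 1142. BT replicate 5 was the highest of the 15 plants in all 13 subunits.

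Because these subunits stood high together, the promoters of PBB2 and RPN5B are shown as examples. Both hold the site II letters in the 250 bases before the annotated start and overlap no other gene listed in the series. Annotated genes that are not listed were not checked for overlap. Of the 13 chromosome 5 subunits 5 held the element there, of the 38 on other chromosomes 13, and of all 21283 genes 15.97%. Capitals mark TGGGCC or its reverse complement GGCCCA, and the sequences run 5′ to 3′ on the strand of the gene, from RefSeq's TAIR10.1.
PBB2 (chr5:16250926-16251175, minus strand): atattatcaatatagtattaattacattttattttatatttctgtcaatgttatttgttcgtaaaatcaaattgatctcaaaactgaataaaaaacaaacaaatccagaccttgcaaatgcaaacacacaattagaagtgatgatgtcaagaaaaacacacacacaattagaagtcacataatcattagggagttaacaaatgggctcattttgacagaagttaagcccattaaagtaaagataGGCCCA
RPN5B (chr5:25896587-25896836, minus strand): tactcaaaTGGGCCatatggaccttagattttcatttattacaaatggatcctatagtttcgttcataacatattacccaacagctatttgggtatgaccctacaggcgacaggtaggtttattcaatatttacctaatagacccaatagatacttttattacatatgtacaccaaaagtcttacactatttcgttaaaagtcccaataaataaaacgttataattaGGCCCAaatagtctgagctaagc
PBB2, a beta subunit of the 20S core, had a count of 1452 in BT replicate 5, against 855, 681, 786 and 877 in BT replicates 1 to 4, a shift of 0.95. RPN5B, a lid subunit, had 743, against 475, 420.3, 514 and 508, a shift of 0.72. RPN8A, also of the lid, had 1624, against 1079.8, 1009, 1293 and 1085, a shift of 0.63. The 8 chromosome 5 subunits without the letters had shifts from 0.50 to 1.00 and the 5 with them from 0.63 to 1.05, ranges that overlap over most of their length, and no binding was measured.

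Ribosomal proteins, whose genes are many and spread over all chromosomes, stood lower than the proteasome. The 81 members on chromosome 5, of any compartment, had a median of 0.31, with 51 following, 18 unshifted, 6 lower and 6 beyond. The 261 on other chromosomes stood at -0.095. The difference was 0.41, a ratio of 1.33, and between -0.029 and 0.029 in the other 14 plants. The 6 lower ones included EMB3136, RPL27, EMB3137 and PSRP6, which were chosen after their values were seen. PSRP6 is known as a plastid-specific ribosomal protein. The list was not split by compartment, and the compartments of the others are not given. The 13 measured histone superfamily genes had a median of 0.75 with 10 beyond, beside 0.16 for 30 such genes elsewhere. Histone genes are close copies of each other, so that their single values are uncertain.

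Regulators of chromatin and of the clock stood mostly at or above the copy ratio. All 6 Polycomb genes measured on chromosome 5 were nearer to log2(4/3) than to 0, with 5 following and a median of 0.55, beside 0.23 for 10 elsewhere. Among them MSI1, a histone-binding subunit, had a count of 974 in BT replicate 5, against 679, 652, 708 and 706 in its sisters, and TFL2, which binds methylated histone H3, 624, against 485, 402, 385 and 387. EMF1 had the lowest shift of the list, 0.28. Of 9 genes of DNA methylation and silencing 1 followed, 5 lay beyond and 3 were unshifted, with a median of 0.66 beside 0.083 for 25 elsewhere. HDA6, a histone deacetylase of gene silencing, had 781, against 475, 464, 507 and 419, while DRM2, the methyltransferase of RNA-directed DNA methylation, shifted by 0.27 and VIM3 by 0.11. Of 13 clock genes 11 were nearer to log2(4/3) than to 0, with a median of 0.70 beside 0.17 for 15 elsewhere. ZTL, the F-box protein that marks clock proteins for degradation, had 1340.0, against 889, 967, 877 and 760.2. TOC1, an evening gene with a shift of 1.29, had 2869, against 2236, 1007, 871 and 1201, and reached 2782 in a BD plant, so that it varied between plants more than ZTL did.

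Genes in common use as expression references were not shifted alike. YLS8, a splicing protein, had 2683 in BT replicate 5, against 1617, 1746, 1854 and 1826 in BT replicates 1 to 4, a shift of 0.69. PEX4, a ubiquitin-conjugating enzyme of peroxisomes, had 773, against 546, 514, 591 and 636, a shift of 0.52. Of the 9 reference genes measured on chromosome 5, 4 followed, 2 lay beyond, 2 were unshifted and 1 was lower, with a median of 0.41 beside 0.15 for 14 elsewhere. Tubulins made up the low end, with TUB6 at -0.28, TUA5 at -0.038 and TUB2 at 0.20. The 8 tubulin and actin genes of chromosome 5 had a median near 0 (8.1e-05), 0.29 above the -0.29 of 13 others elsewhere.

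Photosynthesis genes on chromosome 5 were low in BT replicate 5, though less so than their partners elsewhere. The 4 photosystem and antenna genes measured on chromosome 5 were all lower than -0.21, with a median of -0.74, and BT replicate 5 was the lowest of 15 plants in each. LHCB3, an antenna protein of photosystem II, had a count of 76287 in BT replicate 5, against 108635, 176387, 156652 and 173105 in BT replicates 1 to 4, and between 111763 and 185184 in TT. PSBO1, of the water-splitting complex, had 69808, against 90683, 133424, 102397 and 119730.0, and PSAN, of photosystem I, 38000.2, against 48149, 77932, 96344 and 103418. Their 39 partners on other chromosomes had a median of -0.98, which left the chromosome 5 genes 0.24 higher, a ratio of 1.18, where the other 14 plants gave -0.087 to 0.054. The 5 Calvin cycle genes had a median of -0.44 beside -0.70 for 20 elsewhere, with 3 lower and 2 unshifted. The 3 lower ones were the Rubisco small subunits RBCS3B, RBCS2B and RBCS1B, which lie side by side, are near copies of each other and shifted by -0.78, -0.63 and -0.44. Of 7 genes of chlorophyll synthesis 4 were lower, 2 unshifted and 1 followed, with a median of -0.24 beside -0.61 for 18 elsewhere. PORA, which reduces protochlorophyllide, stood at -0.75, GUN5, a subunit of magnesium chelatase, at -0.24, and HEMG2, the protoporphyrinogen oxidase, at 0.50. Of the 16 genes in these 3 lists 11 were lower than -0.21, 4 were unshifted and 1 followed, while each list had a higher median than its partners elsewhere.

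The same plant was low in leaf markers, which lie on chromosomes 1 and 2, and high in defence genes on chromosome 5 and elsewhere. The summed normalized counts of the 4 leaf markers RBCS1A, LHCB1.3, LHCB2.1 and RCA were 674329 in BT replicate 5, against 1025804 to 1494088 in BT replicates 1 to 4, 1178175 to 1666417 in TT and 977995 to 1638385 in BD. The 6 flower markers summed to 82.1 in BT replicate 5, against 93.1 to 413 in its sisters, and the 2 root markers listed to 640 against 585 to 1604, so that counts of other organs were a small part of any library. The seed markers and COBL9 are not among the genes listed in the series. Whether the low leaf markers have a part in the shift of single genes was not tested. In a bulk sample, fewer cells of a type and less RNA per cell cannot be told apart.

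Genes of salicylic acid defence had the highest median of all lists on chromosome 5. All 11 measured on chromosome 5 were beyond 0.62, with a median of 2.41, and BT replicate 5 was the highest of 15 plants in each, but the 18 genes elsewhere stood at 2.25, all of them at or above 0.21, and the difference of 0.16 lay within the -0.30 to 0.54 of the other 14 plants. DMR6, which breaks down salicylic acid, had a count of 11657 in BT replicate 5, against 1903, 1573, 3967 and 1115 in BT replicates 1 to 4, and between 1222 and 5631 in BD. WRKY38, a transcription factor of this response, had 1403, against 249, 46.7, 383 and 50.7, and PBS3, which acts in salicylic acid synthesis, 2157, against 426, 285, 953 and 286. The sister plants themselves differed several-fold in these genes, with BT replicates 3 and 1 the highest among them. Over all members with a symbol the highest shifts belonged to WRKY75 (4.54), a factor of senescence and phosphate responses, GLR2.5 (4.98), a glutamate receptor-like channel, HAI1 (3.94), a phosphatase of abscisic acid signalling, and PTR3 (3.69), a peptide transporter. PTR3 had 2361 in BT replicate 5, against 321, 126, 596 and 56.6, and all 4 genes were also high in BD replicate 4, by 2.55 to 5.60. GLR2.5 and WRKY75 averaged 28.3 and 33.4 over the other 14 plants, so they passed the minimum of 50 only through BT replicate 5 and had to stand high there. HAI1 averaged 71.7 and PTR3 231 over those plants. The lowest were MES18 (-2.08), a methylesterase, UGT76C2 (-1.87), which glucosylates cytokinins, CYP707A3 (-1.74), which breaks down abscisic acid, and ARR6 (-1.72), a cytokinin response regulator. ARR6 had 68.1 in BT replicate 5, against 292, 202, 194 and 285, and UGT76C2 74.6, against 315, 288, 263 and 303, both below all sister plants.

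Among chaperones and metabolic genes the members split. Of 15 heat shock chaperones and factors 5 lay beyond, 4 followed, 5 were unshifted and 1 was lower, with a median of 0.45 beside -0.072 for 15 elsewhere. BIP2, a chaperone of the endoplasmic reticulum, had a count of 21986 in BT replicate 5, against 8236, 5689.7, 8484 and 6170.0 in BT replicates 1 to 4, and reached 19132 in a BD plant. BIP1 is a near-identical copy and can share reads with it. Of 12 genes of nitrogen assimilation 4 lay beyond, 1 followed, 4 were unshifted and 3 lower, with a median of 0.076 beside -0.26 for 13 elsewhere. At the low end stood GS2, the plastid glutamine synthetase, with 35677, against 36679, 51556, 58596 and 52512, and at the high end GSR 1, a cytosolic glutamine synthetase, with 21290.0, against 4389, 3834, 7147 and 2675. Both make glutamine from ammonium, and both are encoded on chromosome 5, at shifts of -0.38 and 2.41. Of 11 genes of cold and abscisic acid responses 4 lay beyond, 2 followed, 3 were unshifted and 2 lower, with a median of 0.34 beside 0.26 for 20 elsewhere. LTI78, induced by cold and drought, had 6525, against 1309, 1792, 764 and 645.

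The remaining lists are given by their medians on chromosome 5 and elsewhere. Cell cycle genes stood at 0.35 (9 genes, 6 following and 3 unshifted) beside -0.091 elsewhere, flowering time genes at 0.60 (7 genes) beside 0.22, and genes of the auxin response at 0.44 (7 genes) beside -0.35. Flavonoid and anthocyanin genes stood at 0.50 (11 genes) beside -0.14, jasmonate genes at 0.98 (6 genes) beside 0.20, sugar starvation genes at 0.45 (5 genes) beside 0.049, and phosphate genes at 0.18 (5 genes) beside 0.058. For ethylene genes the medians were 0.28 (6 genes) and 0.13, among them EIN2, a central transducer of ethylene, at 0.77 and ERF5 at -1.46. Genes of copper, iron and superoxide stood at 0.031 (11 genes) beside -0.022 elsewhere, with COPT1, a copper transporter, at 0.86 and NAS1, which makes the metal chelator nicotianamine, at -0.92. Aliphatic glucosinolate genes stood at -0.097 (6 genes) beside -0.36, with 3 unshifted, 2 lower and 1 following. Touch and rapid stress genes stood at -0.14 (6 genes) beside 0.36, lower on chromosome 5.

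Groups by product name, added after the values were seen, extended this picture to larger numbers. The 52 pentatricopeptide repeat proteins, which bind organelle RNA, had a median of 0.32 beside -0.093 for 173 elsewhere, a ratio of 1.34. The 54 RING and U-box ubiquitin ligases stood at 0.67 beside 0.20, the 36 ubiquitin and ubiquitin-conjugating genes at 0.66 beside 0.23, and the 26 F-box proteins at 0.50 beside 0.046. The 35 DnaJ and HSP20-like chaperones stood at 0.45 beside 0.052, the 30 RNA-binding RRM proteins at 0.40 beside 0.062, the 12 tRNA ligases at 0.51 beside -0.068 and the 20 thioredoxin superfamily genes at 0.50 beside -0.21. The 24 TIR-NBS-LRR and NB-ARC genes, immune receptors, stood at 0.73 beside 0.50, the 25 receptor-like LRR kinases at 0.31 beside -0.22, the 18 small GTPases at 0.39 beside 0.14 and the 211 uncharacterized proteins at 0.43 beside -0.016. The smallest differences were those of 8 UDP-glycosyltransferases (0.047 beside 0.037), 13 MYB factors (-0.035 beside -0.11), 11 mitochondrial carriers (0.062 beside -0.024) and 4 SAUR genes of the auxin response (-0.71 beside -0.66). The largest was that of 9 WRKY factors (2.03 beside 0.61), 1.42, which in the other 14 plants ran from -1.22 to 1.39. These WRKY factors include WRKY75, which passed the minimum only through BT replicate 5. Cytochrome P450 enzymes (11 genes) stood at 0.21 beside 0.013, NAC factors (8 genes) at 1.08 beside 0.86, and peroxidases (4 genes) at -0.36 beside -0.63.

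Over all 46 lists and groups with at least 3 genes on chromosome 5 and 3 elsewhere, the chromosome 5 genes had the higher median in 44, and by at least 0.21 in 35. The median difference was 0.36, a ratio of 1.28, and in 32 lists the difference was above the range of the other 14 plants. The other 14 lists, whose difference lay within that range, were those of ethylene, salicylic acid, touch, cold and abscisic acid, copper and iron, phosphate, sugar starvation, NAC and MYB factors, UDP-glycosyltransferases, cytochrome P450 enzymes, peroxidases, SAUR genes and mitochondrial carriers. The medians on and off the chromosome were correlated across the 46 lists, with a Pearson coefficient of 0.86 and a Spearman coefficient of 0.72. Lists overlap and share this single plant, and some groups were added after values were seen. The plant and the chromosome were chosen by this shift, so higher chromosome 5 medians in most lists follow from that choice. The counts of lists, also those against the range of the other 14 plants, are a description and no independent support. Where a list stood low or high elsewhere in the plant, its chromosome 5 genes thus tended to stand low or high as well, in most lists at a level somewhat above.

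**Figure D5:**
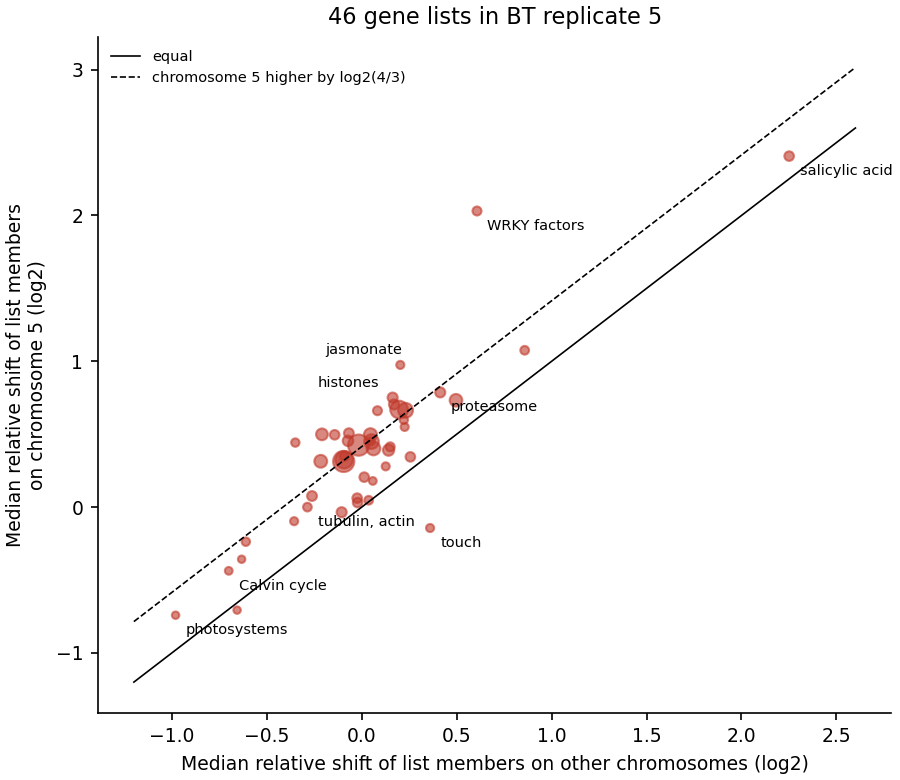
Median relative shift in BT replicate 5 (log2) of the genes of each list on chromosome 5 (y axis) against that of its genes on other chromosomes (x axis), 1 point per list, larger for lists with more genes on chromosome 5; 44 of the 46 points lie above the solid line of equal values, around the dashed line that is log2(4/3) higher. The photosystem list is at -0.98 and -0.74, the salicylic acid list at 2.25 and 2.41.

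The study compared the 3 groups with each other, and the raised chromosome is part of the BT group in every comparison that uses it. In the comparison of TT with BT, 0 of the 3809 members passed limma's test at a Benjamini-Yekutieli adjusted p under 0.05 (background 0% of 21450 genes), and 324 members (8.51%) had an unadjusted p under 0.05 beside 9.41% of all genes, 125 higher and 199 lower in TT. Without BT replicate 5 there were 181 (4.75%), beside 4.62% of all genes, 123 higher and 58 lower in TT. The median difference TT minus BT was -0.033 over the members and 0.055 over chromosomes 2 and 3 with all plants, and 0.023 and 0.031 without BT replicate 5. In BT against BD, 0 members passed, and 33 had an unadjusted p under 0.05 (0.866%, beside 1.73% of all genes). Without BT replicate 5 there were 48 (1.26%, beside 1.7% of all genes). The median difference BT minus BD was 0.048 over the members and -0.036 over chromosomes 2 and 3, and without BT replicate 5 both were -0.023. In TT against BD, which contains no BT plant, 0 members passed, 67 had an unadjusted p under 0.05 (1.76%, beside 2.4% of all genes), and the median difference was 0.0030 over the members and 0.0099 over chromosomes 2 and 3. edgeR and DESeq2 on recovered reads of 14 plants likewise called 0 members in each comparison. At an unadjusted p under 0.05, TT against BT gave 483 members in edgeR (12.7%, beside 11.5% of all genes) and 535 in DESeq2 (14.05%, beside 12.4%). BT against BD gave 43 (1.13%, beside 1.97%) and 52 (1.37%, beside 1.72%), and TT against BD gave 60 (1.58%, beside 2.72%) and 82 (2.15%, beside 2.64%). ACT7, for example, averaged 9856 ± 684 in TT and 9483 ± 606 in BD (SD, n = 5 each), and UBQ3 8126 ± 554 in TT and 9339 ± 719 in BD. Neither passed the threshold, and limma's adjusted p was 1 for every member.

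The 3 genes just inside the minimum of 50, with means of 50.1, 50.1 and 50.2, had shifts of 1.33, -0.00019 and 0.27, and the 3 just outside, with means of 49.8, 49.7 and 49.6, had shifts of 0.0088, 0.31 and 0.15.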

How the data were processed

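Poly(A) RNA of 15 plants was read as 75-base single reads. Per the labels and methods, the authors trimmed with Trimmomatic 0.38, aligned with STAR 2.6.0c, counted with salmon 0.11.3 without strand, kept reads that map to several places, and combined 4 technical replicates per plant. The deposited normalized counts (a signal) are gene counts that the authors divided by 1 DESeq2 1.22 size factor per plant. The deposited rlog values are log2 values that the authors shrank with the same tool, and the deposited TPM values are abundances that the authors corrected for transcript length and scaled to 1 common total per plant. The submitters' processing notes name TAIR10, and promoters were read by locus identifier from RefSeq's TAIR10.1 (21283 of 21450 identifiers matched).

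Shifts were computed from log2(normalized count + 1) as given in the report. Groups were tested with limma 3.58.1 (trend, all 15 plants, Benjamini-Yekutieli adjustment over 21450 genes, threshold 0.05), since the tables hold normalized values. Divided by the smallest value above 0 of each plant, 100% of values were whole within 0.001 in all 15 plants. For BT replicate 1 the size factor so found was 0.999, too near 1 to tell recovered reads from unscaled values at low counts, so edgeR 4.0.16 and DESeq2 1.42.0 were run as alternatives on the recovered reads of the other 14 plants. Scripts were tested on simulated data (Python 3.11.15, pandas 2.3.3, scipy 1.17.1, R 4.3.3).

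The members, lists and tests were chosen with earlier results of these data known, and 20 of the groups by product name were added after values were seen. Genes were named by rule: among quiet members with a symbol the 8 lowest, the 8 highest and the 8 most abundant that followed, and among all members with a symbol the 4 lowest and 4 highest. Genes of the lists were named as examples after their values were seen. Plants of a group are separate plants. Reads are not independent molecules. The interval of the share takes genes as independent draws, which they are not, and does not cover variation between plants. The promoter sequence of 1 further proteasome subunit is not reported here.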

Additional observations from a re-analysis of the deposited data

Results flagged for a closer look

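In 18 of 99 groups of 5 plants examined, a single plant stood apart from the other 4 by Dixon's criterion, which chance alone meets in about 1 of 20 groups. BT replicate 5 was that plant in 12 of them. The share of nuclear reads on chromosome 5 was 25.9% in BT replicate 5, beside a range of 19.8% to 21.6% in the other 14 plants. Its normalized counts stood apart upwards for UBQ3 (23691), HDA2 (593), PAD2 (1516), APD2 (514), SMT1 (2900.5), PAA1 (3376), GLR2.5 (369), WRKY75 (412), HAI1 (586) and PTR3 (2361), and downwards for UGT76C2 (74.6). Since these genes were chosen by their shift in that plant, their standing apart there is a description.

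BD replicate 4 stood apart from the other diploids upwards in 3 of the same genes, GLR2.5 (131), WRKY75 (243) and HAI1 (320.3), and in ALF4 (479). TT replicate 1 stood apart in RAN2 (4741) and HAI1 (207).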

How the results depend on the processing

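The median shift of 0.44 and the share of 69.99% nearer to log2(4/3) than to 0 kept their direction under every alternative run. The median was 0.43 with a pseudocount of 10, with a minimum mean of 10 or 200, relative to all genes of chromosomes 1 to 4, and against the 5 BD plants. It was 0.36 without setting it relative to other genes, 0.40 on TPM and 0.25 on rlog values, which are shrunk by construction. Leaving out each of BT replicates 1 to 4 gave 0.43 to 0.44. The share was 68.0% with a minimum mean of 10, 63.8% without the relative setting, 67.5% on TPM, 57.4% on rlog values, 68.1% against the 5 TT plants, and 68.4% to 70.2% with 1 of BT replicates 1 to 4 left out. For quiet members alone, an alternative chosen after seeing the data, the values were 0.47 and 81.7%. Quiet genes of chromosomes 2 and 3 stood at 0.068 and 25.7%.

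In each of the 3 group comparisons, 0 members were called in all 18 alternatives, and the shares at an unadjusted p under 0.05 moved with those of all genes. In TT against BT, 148 members (3.89%, beside 5.09% of all genes) had such a p without TT replicate 5 and 622 (16.3%, beside 15.3%) without BT replicate 2. In BT against BD, the lowest number was 16 (0.420%, beside 1.05%) without BD replicate 2 and the highest 107 (2.81%, beside 4.77%) without BD replicate 4. In TT against BD, it was 32 (0.840%, beside 1.61%) without TT replicate 5 and 235 (6.17%, beside 5.76%) without TT replicate 4. Same-numbered plants deviated with correlations from -0.70 to 0.57, so the numbers do not pair the plants, and with the replicate block 0 members were called, with 345 (9.06%, beside 9.49% of all genes) at an unadjusted p under 0.05 in TT against BT, 37 (0.971%, beside 1.73%) in BT against BD and 112 (2.94%, beside 2.93%) in TT against BD. The shift of a single gene rests on 1 plant and carries no error.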
